A study of Danio rerio with 12 samples.

Results

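Matrix metalloproteinases (MMPs) and their inhibitors were examined in sorted macrophages of zebrafish embryos with mutations in both csf1r genes. The set held 9 genes chosen by symbol, the proteases mmp2, mmp9, mmp13a, mmp14a, mmp14b, mmp25b and adam8a and the inhibitors timp2a and timp2b, out of 35117 gene IDs in the count table. All 9 were found and all 9 passed the filter on low counts, which left 16429 genes for testing. The symbol table gave mmp14 and timp2 to a pair of IDs each, without the paralogue letter. They are therefore called mmp14-I (ENSDARG00000002235), mmp14-II (ENSDARG00000008388), timp2-I (ENSDARG00000061226) and timp2-II (ENSDARG00000075261) in the order of their IDs, and which of them is the a or the b gene was not resolved. The others were mmp2 (ENSDARG00000017676), mmp9 (ENSDARG00000042816), mmp13a (ENSDARG00000012395), mmp25b (ENSDARG00000010556) and adam8a (ENSDARG00000001452).

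The cells were mpeg-GFP+ cells, sorted from whole embryos that carried a reporter driven by the macrophage promoter mpeg. The csf1rDM embryos were homozygous for j4e1 in csf1ra and for re01 in csf1rb, the duplicated zebrafish genes for the CSF1 receptor, and the control embryos were wildtype with the same tg(mpeg-GFP) reporter. Each genotype was sampled at 50 and at 28 h post-fertilisation (hpf), with 3 libraries in each of the 4 groups. For each library 35 embryos were pooled (70 in the csf1rDM group at 50 hpf), and a replicate is such a pool, not an animal. The labels do not say whether the pools came from separate clutches or whether controls were siblings of the mutants, so p-values measure the spread between these pools only.

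MMPs are zinc-dependent endopeptidases that cut collagens, laminins and other proteins of the extracellular matrix, and macrophages use them to move through tissue and to remodel it. They are made as inactive precursors. The membrane-type protease Mmp14 activates pro-Mmp2 at the cell surface, a step for which Timp2 acts as an adaptor at low amounts and as an inhibitor at high amounts. Adam8 belongs to the related ADAM family, whose members shed the outer parts of surface proteins, and in mammals it is made largely by leukocytes.

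Library totals ranged from 8641139 to 20261650 counts, and levels are given as CPM, meaning counts divided by the TMM-scaled library size, at which 3 counts corresponded to between 0.144 and 0.364 CPM. No library repeated another of its own group, since the chi-square of counts between replicates, divided by its degrees of freedom, was at least 5.17. Libraries of different groups were not compared in this way. The most abundant mpeg1 ID averaged between 2548 and 4633 CPM in the 4 groups. The 21 IDs of a macrophage marker list summed to between 18490 and 27745 CPM per library. The 12 IDs of an endothelial list summed to 122 to 163 CPM per library. kdrl, one of them, was at or below 1.2 CPM, so nearly all of each sum came from other IDs of that list. Transcripts of the mutated receptors were present in all groups. csf1ra averaged 381 ± 36.6 CPM in csf1rDM and 404 ± 48.9 CPM in control at 50 hpf, and csf1rb averaged 186 ± 31.0 CPM in csf1rDM and 331 ± 97.2 CPM in control, so these levels do not by themselves check the genotype labels.

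The first comparison asked which members differed between csf1rDM and control macrophages of the same age. Of the 9 members, 1 rose in csf1rDM at 50 hpf and 1 at 28 hpf, in both cases timp2-II, and 0 fell. A call required an adjusted p under 0.01 and an absolute log2 fold change over 1 in edgeR's quasi-likelihood test. Of all genes tested, 5.33% passed these thresholds at 50 hpf (2.29% higher and 3.04% lower in csf1rDM) and 4.08% at 28 hpf (1.84% higher and 2.23% lower). The median log2 fold change of the members was 0.20 at 50 hpf and -0.25 at 28 hpf, beside -0.018 and 0.018 over all genes tested. With an unadjusted p under 0.05 there were 4 members at 50 hpf and 5 at 28 hpf, where 32.1% and 33.5% of all genes tested reached that level.

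The inhibitor timp2-II had 184, 260 and 174 CPM in csf1rDM at 50 hpf, against 71.6, 86.9 and 90.6 CPM in control. At 28 hpf it had 291, 274 and 280 CPM in csf1rDM, against 119, 99.8 and 115 CPM in control. Every csf1rDM library lay above every control library of its age, and the 3 values of csf1rDM at 28 hpf lay closest together. In edgeR the difference was 1.31 ± 0.15 on the log2 scale (SE, adjusted p by edgeR = 6.06e-05) at 50 hpf and 1.34 ± 0.15 (adjusted p = 7.77e-05) at 28 hpf, or 2.48-fold and 2.53-fold. Among the 8552 tested genes with a mean of at least 10 CPM it ranked 132nd from the top at 50 hpf and 126th at 28 hpf. Both calls held in all 18 alternative analyses, in which the adjusted p stayed at or below 0.00156 at 50 hpf and 0.000904 at 28 hpf. The summed level of the macrophage marker list was also higher in csf1rDM, at 22347 to 25944 CPM against 18490 to 20327 CPM in control at 50 hpf and 26779 to 27745 CPM against 22785 to 23905 CPM at 28 hpf, and its part in the timp2-II difference was not tested. Not every ID of that list was higher. csf1rb was lower in csf1rDM, at 153 to 214 against 257 to 441 CPM at 50 hpf. At 28 hpf it had 61.4 to 97.8 against 135 to 161 CPM. marco was higher in csf1rDM at 50 hpf (697 to 740 against 443 to 484 CPM) and lower at 28 hpf (125 to 134 against 205 to 232 CPM). In sorted bulk samples, fewer expressing cells and less RNA per cell cannot be told apart.

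Its paralogue timp2-I was measured at 5.29, 16.6 and 11.3 CPM in csf1rDM and at 8.25, 8.56 and 4.48 CPM in control at 50 hpf. At 28 hpf the values were 6.56, 6.42 and 6.63 CPM in csf1rDM and 6.97, 4.56 and 4.41 CPM in control. The groups overlapped at both ages, and the log2 fold changes of 0.64 ± 0.37 and 0.30 ± 0.38 (SE, adjusted p by edgeR = 0.266 and 0.626 at 50 and 28 hpf) did not pass. Reads that the paralogues share could be counted for either, since the counting rule is not given in the sources used here.

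**Figure D1:**
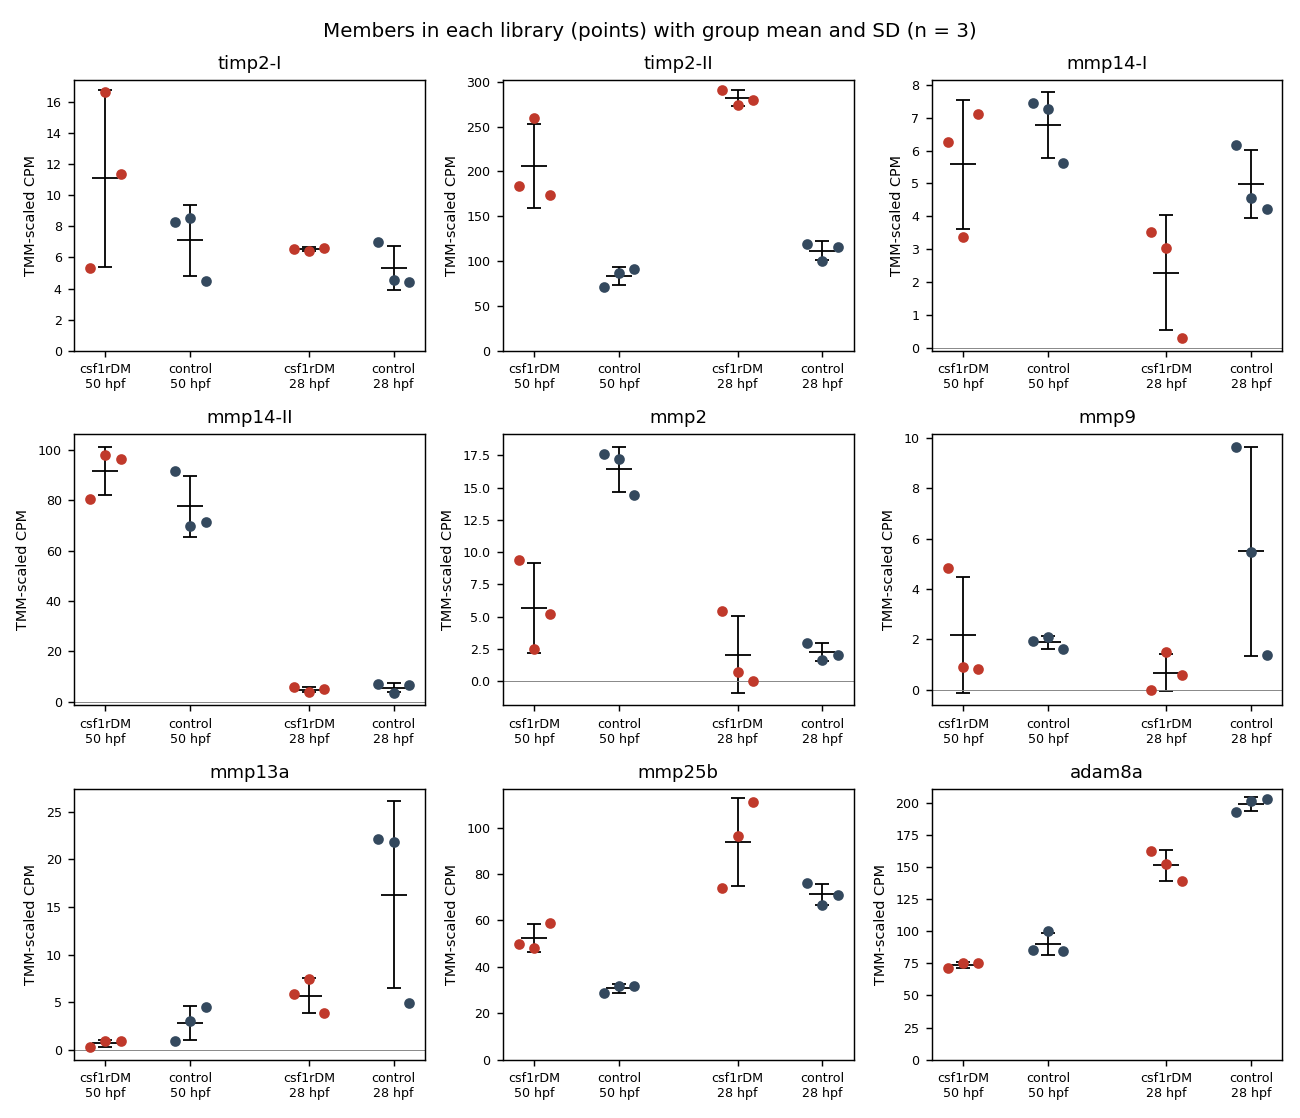
TMM-scaled CPM of the 9 members in each library, with csf1rDM left of control at 50 hpf and then at 28 hpf; points are libraries, and bars are the mean and SD (n = 3). The csf1rDM points of timp2-II, from 174 to 291 CPM, lie above all control points, and mmp14-II lies between 69.8 and 98.1 CPM at 50 hpf and between 3.52 and 6.89 CPM at 28 hpf.

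Neither mmp14 ID differed between the genotypes past the thresholds. mmp14-II had 80.7, 98.1 and 96.6 CPM in csf1rDM at 50 hpf, against 91.6, 69.8 and 71.5 CPM in control. The overlap of the groups went with a log2 fold change of 0.24 ± 0.20 (SE, adjusted p by edgeR = 0.447), and at 28 hpf, with 5.71, 3.85 and 4.92 CPM in csf1rDM and 6.89, 3.52 and 6.58 CPM in control, it was -0.25 ± 0.24 (adjusted p = 0.516). mmp14-I had 3.52, 3.04 and 0.285 CPM in csf1rDM at 28 hpf, all below the 6.18, 4.56 and 4.22 CPM of control, with a log2 fold change of -1.15 ± 0.59 (adjusted p = 0.195). At 50 hpf its values of 6.26, 3.38 and 7.11 CPM in csf1rDM overlapped the 7.44, 7.27 and 5.63 CPM of control (-0.28 ± 0.56, adjusted p = 0.787).

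mmp2, the gelatinase that Mmp14 activates, had 9.43, 2.49 and 5.19 CPM in csf1rDM at 50 hpf, against 17.6, 17.2 and 14.4 CPM in control. All 3 csf1rDM values lay below the lowest control value. The log2 fold change of -1.53 ± 0.82 did not pass (SE, adjusted p by edgeR = 0.229). At 28 hpf mmp2 had 45, 11 and 0 counts in csf1rDM and 38, 24 and 33 counts in control. Those groups overlapped, and their log2 fold change of -0.24 ± 0.92 became 0.18 without csf1rDM replicate 2 and 0.32 without csf1rDM replicate 3, and -2.60 without csf1rDM replicate 1 (adjusted p between 0.0470 and 1 over all alternatives). Markers of mesenchymal cells, which make much of the Mmp2 of tissues, were also uneven. Their 16 IDs summed to 40.7 to 61.1 CPM in csf1rDM and 67.4 to 102 CPM in control at 50 hpf. At 28 hpf they summed to 30.5 to 53.1 CPM in csf1rDM and 23.2 to 27.3 CPM in control. pdgfra, one of them, was at or below 7.81 CPM in every library, so most of each sum came from other IDs of that list. The part of mesenchymal cells in the mmp2 values was not tested.

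mmp9, a gelatinase, and mmp13a, a collagenase, had lower means in csf1rDM at 28 hpf without passing the thresholds. mmp9 had 0, 22 and 8 counts in csf1rDM, against 122, 79 and 22 counts in control. A single tie in counts, at 22, joined the groups, and in CPM csf1rDM replicate 2 (1.49 CPM) lay just above control replicate 3 (1.36 CPM). In edgeR the log2 difference was -2.90 ± 0.99 (SE, adjusted p by edgeR = 0.0559), and DESeq2's Wald test gave -2.96 with an adjusted p of 0.00923. At 50 hpf mmp9 was measured at 4.85, 0.884 and 0.815 CPM in csf1rDM and at 1.94, 2.10 and 1.60 CPM in control. There csf1rDM replicate 1 stood above all control libraries and the other 2 below them, so that the log2 fold change of 0.20 ± 0.92 (adjusted p = 0.911) became -1.14 without csf1rDM replicate 1.

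mmp13a had 5.83, 7.43 and 3.85 CPM in csf1rDM at 28 hpf, against 22.1, 21.8 and 4.96 CPM in control. Control replicate 3 lay within the range of the mutants, and the log2 fold change of -1.51 ± 0.59 did not pass (SE, adjusted p by edgeR = 0.0924). At 50 hpf it had 3, 11 and 12 counts in csf1rDM, against 15, 63 and 71 counts in control. Here the groups did not overlap in CPM, with a log2 fold change of -2.03 ± 0.70 (adjusted p = 0.0598). Control replicate 1, at 0.938 CPM, lay only just above the highest csf1rDM value of 0.889 CPM.

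The genes of a neutrophil marker list were also uneven between these libraries, and not in 1 direction. At 28 hpf lyz had 5.71, 61.8 and 48.5 CPM in csf1rDM, against 178, 279 and 49.0 CPM in control. Control replicates 1 and 2 were thus the high libraries for mmp9, mmp13a and lyz alike, and control replicate 3 the low one. In csf1rDM at 28 hpf mmp9 had the same order of libraries as lyz (0, 1.49 and 0.570 CPM). There mmp13a did not, since replicate 1, the lowest for lyz, lay between the others (5.83, 7.43 and 3.85 CPM). csf3r of the same list was instead higher in csf1rDM, at 165, 219 and 202 CPM against 102, 101 and 104 CPM in control. Only 5 of the 10 symbols of the neutrophil marker list matched, to 6 IDs, and mpx was among those without a match. With 1 ID at 0 in each of these groups, the 6 IDs summed to 416 to 567 CPM in csf1rDM at 28 hpf. In control at 28 hpf they summed to 440 to 828 CPM. At 50 hpf the list summed to 401 to 516 CPM in csf1rDM and 284 to 296 CPM in control, with lyz at 12.8 ± 3.04 and 12.8 ± 4.81 CPM and csf3r at 204 ± 48.4 and 89.5 ± 22.9 CPM (SD, n = 3). At that age mmp13a averaged 0.679 ± 0.359 CPM in csf1rDM and 2.83 ± 1.81 CPM in control, and mmp9 2.18 ± 2.31 and 1.88 ± 0.258 CPM. The part of neutrophils in the mmp9 and mmp13a values was not tested.

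mmp25b, whose mammalian counterpart is a leukocyte protease held in the membrane by a lipid anchor, had 49.9, 48.2 and 59.1 CPM in csf1rDM at 50 hpf, against 28.6, 32.0 and 31.8 CPM in control. The groups lay well apart, but the log2 fold change of 0.77 ± 0.14 was under the fold limit (SE, adjusted p by edgeR = 0.00217). At 28 hpf the values of 73.9, 96.3 and 111 CPM in csf1rDM and 76.0, 66.7 and 71.0 CPM in control overlapped, with a log2 fold change of 0.40 ± 0.14 (adjusted p = 0.0608). adam8a had 71.0, 74.9 and 75.0 CPM in csf1rDM at 50 hpf, against 85.5, 100.1 and 84.4 CPM in control. At 28 hpf it had 163, 152 and 139 CPM in csf1rDM, against 193, 201 and 203 CPM in control. All csf1rDM values were the lower ones at both ages, and the log2 fold changes of -0.29 ± 0.092 and -0.40 ± 0.091 (adjusted p = 0.0415 and 0.00856 at 50 and 28 hpf) were under the fold limit. Its paralogue adam8b, outside the set and named after its values had been seen, went the other way without passing. It had 2.64, 3.06 and 2.15 CPM in csf1rDM at 50 hpf, against 0.438, 0.670 and 0.960 CPM in control. At 28 hpf it had 1.70, 5.47 and 5.63 CPM in csf1rDM, against 2.06, 1.38 and 1.24 CPM in control.

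In CPM the genotypes did not overlap for 5 members at 50 hpf, 2 of them higher and 3 lower in csf1rDM, where 35.9% of all genes tested did not overlap. At 28 hpf this held for 3 members, 1 higher and 2 lower, where 41.0% of all genes tested did not overlap. The log2 fold change had the same sign at both ages for 7 members and opposite signs for mmp9 and mmp14-II. The share of all genes tested with the same sign was not computed. Among the 7, mmp2 at 28 hpf turned positive without csf1rDM replicate 2 or replicate 3 of that age. The sign of mmp9 at 50 hpf also reversed without csf1rDM replicate 1 of that age. The difference between the genotype effects at 50 and 28 hpf was tested as an interaction, in which 0 members passed in edgeR and 0 in DESeq2. Of all genes tested, 0.158% passed in edgeR (0.0913% higher and 0.0670% lower). mmp9 was the only member with an unadjusted p under 0.05 (log2 difference 3.10 ± 1.34 SE, edgeR adjusted p = 0.348), beside 12.9% of all genes tested. For timp2-II the interaction was -0.028 ± 0.20 (adjusted p = 0.981).

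**Figure D2:**
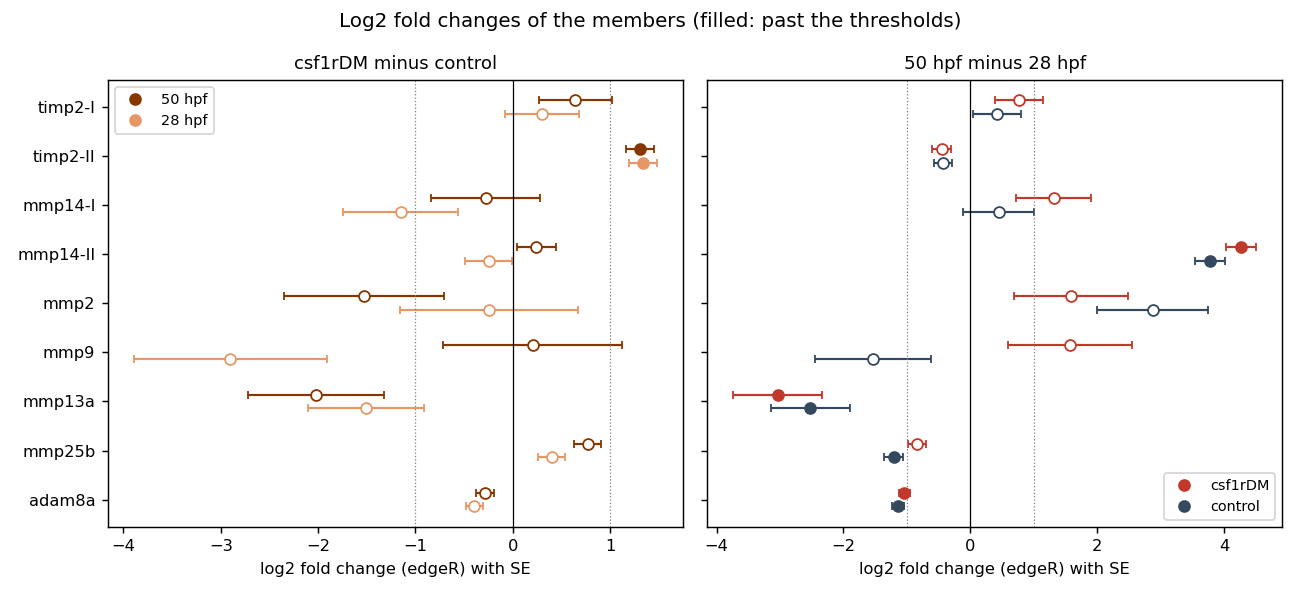
Log2 fold changes of the 9 members from edgeR with their SE, for csf1rDM minus control on the left and 50 hpf minus 28 hpf on the right; filled points passed an adjusted p under 0.01 and the fold limit drawn as dotted lines. On the left timp2-II alone is filled, at 1.31 and 1.34, and on the right mmp14-II stands at 4.27 in csf1rDM and 3.78 in control while mmp13a and adam8a are filled below 0.

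The second comparison asked how the members differed with age within a genotype. mmp14-II rose in both genotypes by 50 hpf, and mmp13a and adam8a fell in both, while mmp25b fell in control. Thus 3 of the 9 members passed the thresholds in csf1rDM (1 higher, 2 lower), where 8.24% of all genes tested passed (4.70% higher, 3.54% lower), and 4 in control (1 higher, 3 lower), where 6.29% passed (4.29% higher, 2.00% lower). The median log2 fold change of the members was 0.76 in csf1rDM and -0.43 in control, beside 0.039 and 0.055 over all genes tested. In CPM 5 members did not overlap between the ages in csf1rDM and 6 in control, beside 36.8% and 49.3% of all genes tested. With an unadjusted p under 0.05 there were 6 members in each genotype, beside 38.5% of all genes tested in csf1rDM and 34.9% in control.

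mmp14-II had 916, 1220 and 1304 counts in csf1rDM at 50 hpf, against 47, 57 and 69 counts at 28 hpf. In control it had 1465, 1459 and 1117 counts at 50 hpf, against 87, 51 and 106 counts at 28 hpf. The lowest library at 50 hpf was far above the highest at 28 hpf in either genotype. On the log2 scale the rise was 4.27 ± 0.24 in csf1rDM (SE, adjusted p by edgeR = 1.05e-07) and 3.78 ± 0.23 in control (adjusted p = 2.29e-07), or 19.3-fold and 13.7-fold. Among the 8552 tested genes with a mean of at least 10 CPM it ranked 12th from the top in csf1rDM and 51st in control, and both calls held in all alternative analyses. The interaction of 0.49 ± 0.31 did not pass (adjusted p = 0.571).

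The other ID, mmp14-I, averaged 5.58 ± 1.96 CPM at 50 hpf against 2.28 ± 1.75 CPM at 28 hpf in csf1rDM, and 6.78 ± 1.0 CPM at 50 hpf against 4.98 ± 1.05 CPM at 28 hpf in control (SD, n = 3). Neither difference passed (edgeR adjusted p = 0.120 and 0.619). Of the counts of both mmp14 IDs, mmp14-II held 92.8%, 96.7% and 93.1% in csf1rDM at 50 hpf, against 61.8%, 55.9% and 94.5% at 28 hpf. In control it held 92.5%, 90.6% and 92.7% at 50 hpf, against 52.7%, 43.6% and 60.9% at 28 hpf. The ages did not overlap in control, whereas in csf1rDM replicate 3 at 28 hpf, with 4 counts of mmp14-I, reached the share seen at 50 hpf.

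timp2-II averaged 206 ± 47.1 CPM at 50 hpf against 282 ± 8.61 CPM at 28 hpf in csf1rDM, and 83.0 ± 10.1 CPM at 50 hpf against 112 ± 10.4 CPM at 28 hpf in control (SD, n = 3). Every library at 50 hpf lay below every library of its genotype at 28 hpf. The log2 fold changes of -0.45 ± 0.14 and -0.43 ± 0.14 (SE, adjusted p by edgeR = 0.0320 in csf1rDM and 0.0493 in control) did not pass. timp2-I, at 0.76 ± 0.38 in csf1rDM and 0.42 ± 0.38 in control, did not pass either (adjusted p = 0.156 and 0.465).

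Because Timp2 binds Mmp14, the CPM of timp2-II was divided by that of mmp14-II in each library, a description chosen with both genes' values known. The ratio was 2.28, 2.65 and 1.8 in csf1rDM at 50 hpf, against 0.782, 1.24 and 1.27 in control. At 28 hpf it was 51.0, 71.2 and 56.9 in csf1rDM, against 17.3, 28.3 and 17.6 in control. The genotypes did not overlap at either age, and the ratio was lower at 50 hpf than at 28 hpf in every library. Both outcomes restate the genotype difference of timp2-II and the rise of mmp14-II with age given above, and add no evidence. The ratio leaves out mmp14-I. In control mmp14-II held 43.6% to 60.9% of the mmp14 counts at 28 hpf and 90.6% to 92.7% at 50 hpf. In csf1rDM it held 55.9% to 94.5% and 92.8% to 96.7%. The absolute size of the ratio depends on the lengths of the 2 transcripts and says nothing of protein amounts.

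**Figure D3:**
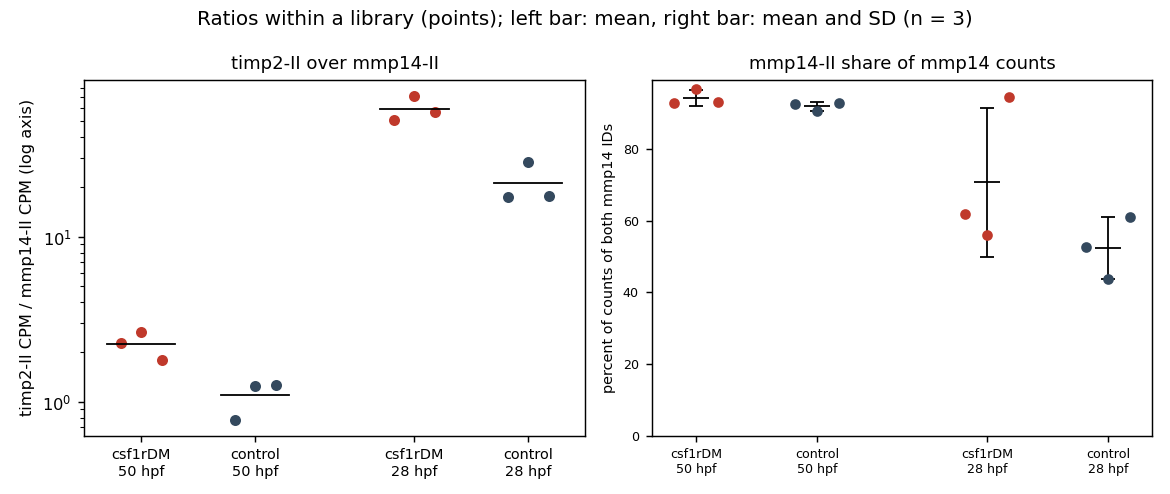
Left, timp2-II CPM divided by mmp14-II CPM in each library on a log axis, with the mean as a bar; right, mmp14-II as a percentage of the counts of both mmp14 IDs, with mean and SD (n = 3). Groups run from csf1rDM and control at 50 hpf to csf1rDM and control at 28 hpf. The ratio lies between 0.782 and 2.65 at 50 hpf and between 17.3 and 71.2 at 28 hpf, with csf1rDM above control at each age.

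mmp13a had 0.264, 0.884 and 0.889 CPM in csf1rDM at 50 hpf, against 5.83, 7.43 and 3.85 CPM at 28 hpf. In control it had 0.938, 3.01 and 4.54 CPM at 50 hpf, against 22.1, 21.8 and 4.96 CPM at 28 hpf. The ages did not overlap in either genotype, although control replicate 3 at 28 hpf was close to the highest control value at 50 hpf. The log2 difference was -3.03 ± 0.70 in csf1rDM (SE, adjusted p by edgeR = 0.00615) and -2.52 ± 0.62 in control (adjusted p = 0.00989). The csf1rDM call was lost without csf1rDM replicate 1 or 2 at 28 hpf or any of the 3 csf1rDM libraries at 50 hpf, with adjusted p between 0.0132 and 0.0271. The control call was lost without control replicate 1 or 2 at 28 hpf, any control library at 50 hpf, csf1rDM replicate 1 or 2 at 28 hpf or csf1rDM replicate 3 at 50 hpf, with adjusted p between 0.0101 and 0.0461. The neutrophil gene lyz also had lower means at 50 hpf, at 12.8 ± 3.04 CPM at 50 hpf against 38.7 ± 29.3 CPM at 28 hpf in csf1rDM, and 12.8 ± 4.81 CPM at 50 hpf against 169 ± 115 CPM at 28 hpf in control (SD, n = 3). The matched IDs of the neutrophil list summed to 401 to 516 CPM at 50 hpf against 416 to 567 CPM at 28 hpf in csf1rDM, where the ages overlapped. In control they summed to 284 to 296 CPM at 50 hpf against 440 to 828 CPM at 28 hpf. csf3r averaged 204 ± 48.4 CPM at 50 hpf against 196 ± 27.3 CPM at 28 hpf in csf1rDM, and the part of these cells in the mmp13a calls was not tested.

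adam8a averaged 73.6 ± 2.24 CPM at 50 hpf against 151 ± 12 CPM at 28 hpf in csf1rDM, and 90.0 ± 8.76 CPM at 50 hpf against 199 ± 5.32 CPM at 28 hpf in control (SD, n = 3). It fell by 1.04 ± 0.092 on the log2 scale in csf1rDM (SE, adjusted p by edgeR = 4.30e-06) and by 1.14 ± 0.092 in control (adjusted p = 2.02e-06). Without csf1rDM replicate 1 at 28 hpf the csf1rDM value was -0.99, under the fold limit. mmp25b averaged 52.4 ± 5.86 CPM at 50 hpf against 93.8 ± 18.8 CPM at 28 hpf in csf1rDM, and 30.8 ± 1.91 CPM at 50 hpf against 71.2 ± 4.64 CPM at 28 hpf in control. It fell by 1.21 ± 0.14 in control (adjusted p = 5.38e-05), while -0.84 ± 0.14 in csf1rDM (adjusted p = 0.000668) was under the fold limit. The difference between these 2 values, 0.37 ± 0.20, did not pass as an interaction (adjusted p = 0.477).

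mmp2 had 17.6, 17.2 and 14.4 CPM in control at 50 hpf, against 3.01, 1.66 and 2.05 CPM at 28 hpf. All libraries at 50 hpf were the higher ones, and the log2 fold change of 2.88 ± 0.88 missed the threshold (SE, adjusted p by edgeR = 0.0315). It passed without csf1rDM replicate 1 or replicate 3 at 28 hpf (adjusted p = 0.00387 and 0.00449), without the filter on low counts (0.00636) and with only the 6 control libraries (8.13e-06). In csf1rDM mmp2 averaged 5.70 ± 3.50 CPM at 50 hpf against 2.07 ± 2.96 CPM at 28 hpf (SD, n = 3), with a log2 fold change of 1.59 ± 0.90 (adjusted p = 0.216). Without csf1rDM replicate 1 at 28 hpf, the library with 45 counts, it was 3.87 (adjusted p = 0.00496). mmp9 had log2 fold changes of 1.57 ± 0.98 in csf1rDM and -1.54 ± 0.92 in control, neither of which passed (adjusted p = 0.265 and 0.261).

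Other genes of the same pathway were taken from 7 lists. For inhibitors outside the set 4 of 6 listed symbols matched, and timp1 and timp3 found no match by symbol. The 3 matched IDs, all tested, were an ID of reck, a membrane-anchored MMP inhibitor, and a pair of IDs of timp4. timp4-II (ENSDARG00000102617) had 4.14, 10.1 and 4.22 CPM in csf1rDM at 50 hpf, against 0.313, 0.670 and 0.384 CPM in control, and 61.2, 76.1 and 66.2 CPM in csf1rDM at 28 hpf, against 26.8, 20.4 and 16.9 CPM in control. No csf1rDM value reached down to a control value of the same age. The control values at 50 hpf rested on 5, 14 and 6 counts, near the floor of 3 counts. timp4-II rose in csf1rDM by a log2 fold change of 3.68 ± 0.42 at 50 hpf (SE, adjusted p by edgeR = 7.12e-05) and 1.67 ± 0.29 at 28 hpf (adjusted p = 0.00159), and the call at 28 hpf was lost without control replicate 2 or replicate 3 at 28 hpf (adjusted p = 0.0121 and 0.0130). With age it fell by 3.46 ± 0.32 in csf1rDM (adjusted p = 5.59e-06) and by 5.48 ± 0.40 in control (adjusted p = 1.03e-06). The interaction of 2.01 ± 0.52 did not pass (adjusted p = 0.104). timp4-I (ENSDARG00000100795) had 0, 1 and 0 counts in csf1rDM and 24, 0 and 0 in control at 50 hpf, and 65, 114 and 96 counts in csf1rDM and 24, 37 and 35 in control at 28 hpf. It passed only with age in csf1rDM (adjusted p = 0.00244, lost without csf1rDM replicate 1 or 3 at 50 hpf, at 0.0114 and 0.0121), and with at most 1 count in each csf1rDM library at 50 hpf no fold change is given. With a mean under 5 CPM it was outside the naming rule and was named after its values had been seen. reck averaged 36.0 ± 11.4 CPM at 50 hpf against 23.4 ± 6.69 CPM at 28 hpf in csf1rDM, and 42.9 ± 4.32 CPM at 50 hpf against 17.6 ± 1.25 CPM at 28 hpf in control (SD, n = 3). Its rise of 1.29 ± 0.24 in control passed (adjusted p = 0.00157, but 0.0104 without control replicate 1 at 28 hpf), and 0.61 ± 0.24 in csf1rDM did not (adjusted p = 0.0713).

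**Figure D4:**
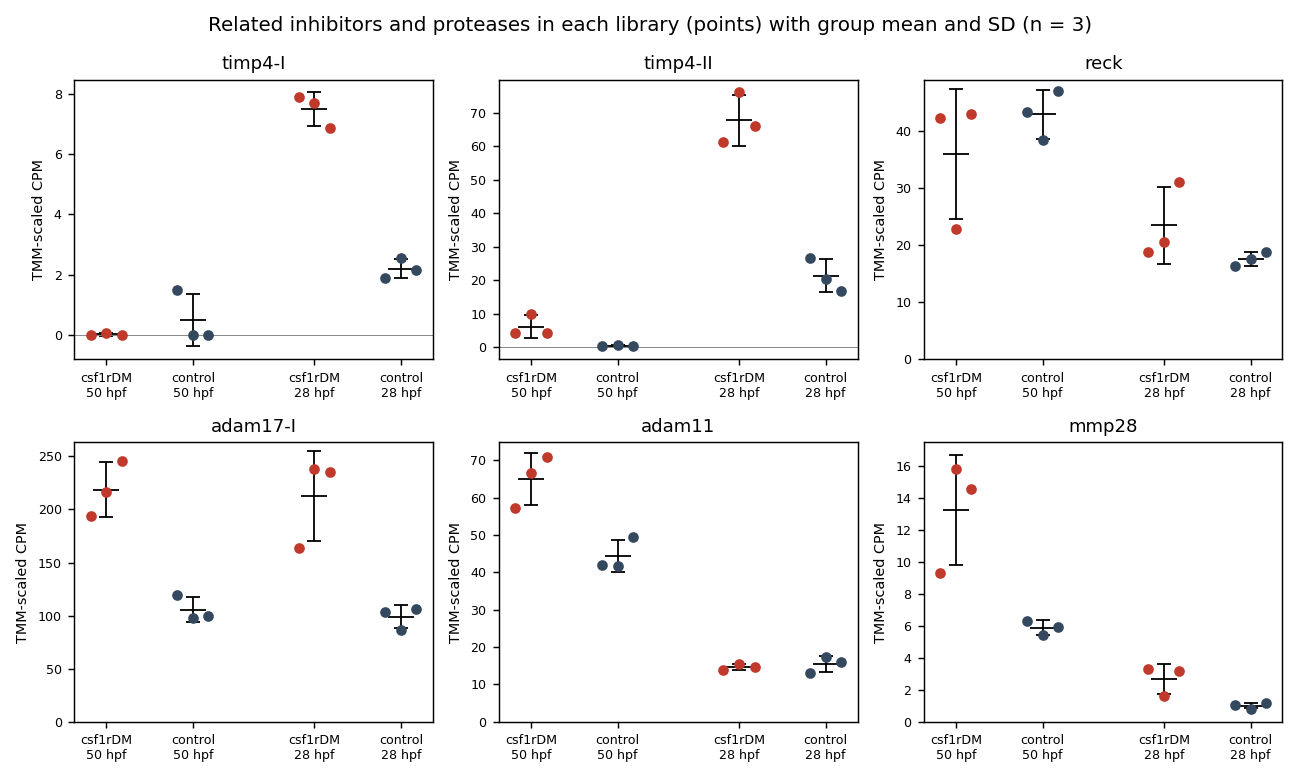
TMM-scaled CPM of 6 related inhibitors and proteases in each library, with csf1rDM left of control at 50 hpf and then at 28 hpf; points are libraries and bars the mean and SD (n = 3). timp4-II is at 61.2 to 76.1 CPM in csf1rDM and 16.9 to 26.8 CPM in control at 28 hpf, adam17-I is higher in csf1rDM at each age, and mmp28 and adam11 are higher at 50 hpf than at 28 hpf.

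Of 17 IDs of other MMPs, 4 were tested, and mmp28, a secreted MMP of epithelia and macrophages in mammals, was the one that passed. It averaged 13.3 ± 3.45 CPM at 50 hpf against 2.70 ± 0.94 CPM at 28 hpf in csf1rDM, and 5.89 ± 0.46 CPM at 50 hpf against 1.01 ± 0.18 CPM at 28 hpf in control (SD, n = 3). It rose with age by 2.30 ± 0.32 on the log2 scale in csf1rDM (SE, adjusted p by edgeR = 0.000154) and by 2.53 ± 0.34 in control (adjusted p = 0.000141). All csf1rDM libraries were above the control libraries of their age, without passing (log2 fold change 1.17 ± 0.30, adjusted p = 0.0151 at 50 hpf, and 1.39 ± 0.34, adjusted p = 0.0121 at 28 hpf). Of all genes tested, 35.9% did not overlap between genotypes at 50 hpf and 41.0% at 28 hpf. Of the 4 tested IDs 0 passed between genotypes, where 5.33% of all genes tested passed at 50 hpf and 4.08% at 28 hpf. With age 1 of the 4 rose in each genotype, where 4.70% of all genes tested rose in csf1rDM and 4.29% in control.

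Of 14 IDs of other ADAM proteases 12 were tested. adam17-I (ENSDARG00000043213), a homologue of the sheddase that releases tumour necrosis factor, had 194, 216 and 246 CPM in csf1rDM at 50 hpf, against 119, 97.9 and 99.2 CPM in control. At 28 hpf it had 163, 238 and 235 CPM in csf1rDM, against 104, 86.3 and 106 CPM in control. The genotypes were clearly apart at both ages, and adam17-I was the 1 ADAM gene of this list that passed in the genotype comparisons, with log2 fold changes of 1.05 ± 0.15 (SE, adjusted p by edgeR = 0.000396) at 50 hpf and 1.1 ± 0.15 (adjusted p = 0.000328) at 28 hpf. At 50 hpf the value was under the fold limit without csf1rDM replicate 3 (0.95) or control replicate 2 or 3 (0.98 and 0.99), and at 28 hpf without csf1rDM replicate 3 (0.96). At the thresholds 1 of the 12 tested IDs passed at each age, where 5.33% of all genes tested passed at 50 hpf and 4.08% at 28 hpf. Of the 12 tested IDs of this list, 9 at 50 hpf and 6 at 28 hpf had an unadjusted p under 0.05 between genotypes in edgeR. This compares with 32.1% and 33.5% of all genes tested. The log2 fold change was positive for 10 of the 12 at 50 hpf and for 9 at 28 hpf. Over all genes tested its median was -0.018 at 50 hpf and 0.018 at 28 hpf. With age, 2 IDs rose in each genotype, where 4.70% of all genes tested rose in csf1rDM and 4.29% in control. adam11, which encodes an ADAM protein without protease activity in mammals, rose by 2.15 ± 0.14 in csf1rDM (adjusted p = 2.87e-07) and by 1.52 ± 0.13 in control (adjusted p = 4.55e-06). adam9 rose by 1.04 ± 0.15 in csf1rDM (adjusted p = 0.000178), a value under the fold limit without csf1rDM replicate 1 at 28 hpf (0.93) or replicate 3 at 50 hpf (0.97). adam17-II rose by 1.17 ± 0.24 in control (adjusted p = 0.00355), a call lost without control replicate 1 or 2 at 28 hpf or any control library at 50 hpf (adjusted p between 0.0122 and 0.0174). In the other genotype both were also higher at 50 hpf, without passing. adam9 had 101, 72.8 and 79.5 CPM in control at 50 hpf, against 56.8, 61.8 and 55.0 CPM at 28 hpf. adam17-II had 17.8, 17.0 and 17.3 CPM in csf1rDM at 50 hpf, against 6.68, 11.3 and 9.77 CPM at 28 hpf. In the interaction 0 IDs of this list passed, beside 0.158% of all genes tested. Of 17 ADAMTS IDs, which encode secreted relatives, 6 were tested and 0 passed in any comparison by edgeR. With an unadjusted p under 0.05 there was 1 in each comparison of ages and 0 between genotypes. Of all genes tested, 38.5% in csf1rDM and 34.9% in control reached that level with age. Between genotypes 32.1% did at 50 hpf and 33.5% at 28 hpf.

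Among 26 IDs of MMP activators and partners, 20 were tested and 0 passed in a genotype comparison by edgeR. An unadjusted p under 0.05 was reached by 6 at 50 hpf and 7 at 28 hpf, beside 32.1% and 33.5% of all genes tested. With age 2 rose in csf1rDM, where 4.70% of all genes tested rose. lrp1-I, a homologue of the endocytic receptor that clears MMP and inhibitor complexes, averaged 26.2 ± 9.86 CPM at 50 hpf against 3.63 ± 1.83 CPM at 28 hpf in csf1rDM (SD, n = 3), with a log2 fold change of 2.86 ± 0.38 (SE, adjusted p by edgeR = 0.000124). furin-I, a homologue of a convertase that removes the propeptide of membrane-type MMPs, had a log2 fold change of 1.02 ± 0.19 (adjusted p = 0.00128), and 7 of the 12 analyses that left out 1 library put it at or under 0.98, below the fold limit. These were without csf1rDM replicate 1 at 28 hpf, csf1rDM replicate 1 or 3 at 50 hpf, control replicate 1 at 28 hpf or any control library at 50 hpf. Without the filter on low counts it was 0.97. In control 0 IDs of this list passed with age, though lrp1-I and furin-I were also higher at 50 hpf. There lrp1-I had 21.1, 15.6 and 14.7 CPM at 50 hpf, against 9.34, 8.43 and 9.43 CPM at 28 hpf. For furin-I the control values were 73.3, 45.7 and 54.5 CPM at 50 hpf, against 37.0, 32.9 and 33.5 CPM at 28 hpf. In the interaction 0 IDs of this list passed, beside 0.158% of all genes tested.

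Matrix proteins that MMPs cut were represented by 34 IDs, of which 29 were tested. With age 1 of these rose in csf1rDM and 4 in control, where 4.70% and 4.29% of all genes tested rose. The median log2 fold change of the list was 1.17 in csf1rDM and 2.17 in control, beside 0.039 and 0.055 over all genes tested. col5a1 rose by 2.94 ± 0.37 in control (SE, adjusted p by edgeR = 0.000100), with 31.2 ± 10.1 CPM at 50 hpf against 4.06 ± 0.49 CPM at 28 hpf (SD, n = 3). col6a1 passed in both genotypes, with 3.27 ± 0.75 in csf1rDM (adjusted p = 0.00593) and 4.21 ± 0.77 in control (adjusted p = 0.00145). The csf1rDM call was lost without csf1rDM replicate 2 or 3 at 28 hpf, any csf1rDM library at 50 hpf or control replicate 1 or 2 at 50 hpf (adjusted p between 0.0104 and 0.0291) and with only the 6 csf1rDM libraries (0.0253), and the control call without control replicate 2 at 28 hpf (0.0101). col1a2 rose by 4.19 ± 0.91 in control (adjusted p = 0.00489), a call lost without any control library at 28 hpf or control replicate 1 or 2 at 50 hpf (adjusted p between 0.0124 and 0.0266). The other was an ID of col2a1, which fell outside the naming rule at a mean of 3.26 CPM. col1a2 had 16.7, 10.6 and 91.4 CPM in csf1rDM and 110, 68.1 and 30.5 CPM in control at 50 hpf, where the 15 IDs of a skeletal muscle list summed to 18, 10.6 and 4973 CPM and to 3576, 3114 and 7.10 CPM in the same libraries. At 50 hpf the libraries with muscle sums of 3114 CPM or more were thus those with the most col1a2. In csf1rDM at 28 hpf this did not hold. There col1a2 had 38.2, 7.70 and 13.9 CPM, and the muscle list summed to 96.4, 635 and 2911 CPM. The part of muscle and of mesenchymal cells, whose sums are given above beside mmp2, in the collagen values was not tested. Between genotypes 4 matrix IDs at 50 hpf and 6 at 28 hpf had an unadjusted p under 0.05 in edgeR. This compares with 32.1% and 33.5% of all genes tested. At the thresholds 5.33% of all genes tested passed at 50 hpf and 4.08% at 28 hpf. Of the matrix IDs 0 passed at 28 hpf and 1 at 50 hpf. That ID was fn1-II, a fibronectin gene, with 39.0 ± 13.2 CPM in csf1rDM and 10.6 ± 5.13 CPM in control at 50 hpf and a log2 fold change of 1.87 ± 0.40 (adjusted p = 0.00519). Its call was lost without csf1rDM replicate 3 or control replicate 2 or 3 at 50 hpf or control replicate 3 at 28 hpf (adjusted p between 0.0102 and 0.0246), and with only the 6 libraries of 50 hpf (0.0126).

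AP-1 factors, which bind the promoters of many MMP genes in mammals, were represented by 15 IDs, of which 13 were tested. Between genotypes 1 was higher and 1 lower in csf1rDM at 50 hpf and 1 was higher at 28 hpf. Of all genes tested, 2.29% were higher and 3.04% lower at 50 hpf, and 1.84% were higher at 28 hpf. With age 2 fell in each genotype, where 3.54% of all genes tested fell in csf1rDM and 2.00% in control. fosl2 averaged 324 ± 55.1 CPM in csf1rDM and 157 ± 2.15 CPM in control at 28 hpf (SD, n = 3), a log2 fold change of 1.05 ± 0.14 (SE, adjusted p by edgeR = 0.000217). It was under the fold limit without csf1rDM replicate 2 or 3 at 28 hpf or csf1rDM replicate 2 at 50 hpf (0.99, 0.89 and 0.97), and at 50 hpf it was 0.69 ± 0.13 (adjusted p = 0.00308). At 50 hpf batf3 passed as higher in csf1rDM (1.21 ± 0.26, adjusted p = 0.00498) and fosl1 as lower (-1.14 ± 0.26, adjusted p = 0.00801). The batf3 call was lost in 7 of the 12 analyses that left out 1 library (any control library of either age or csf1rDM replicate 2 at 50 hpf, adjusted p up to 0.0278), and with only the 6 libraries of 50 hpf (0.125). The fosl1 call was lost in 9 of them (any control library of either age, csf1rDM replicate 1 or 2 at 50 hpf or csf1rDM replicate 2 at 28 hpf, adjusted p up to 0.0433), and with only those 6 libraries (0.0453). With age batf3 fell by 3.55 ± 0.23 in csf1rDM and by 4.45 ± 0.24 in control (adjusted p = 3.10e-07 and 9.50e-08), and atf3 fell by 1.5 ± 0.17 in csf1rDM and by 1.36 ± 0.17 in control (adjusted p = 3.78e-05 and 0.000101).

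The genes with the pattern most like each called member were found by the root mean square difference of centred log2 CPM over the 12 libraries, as a description. For timp2-II they were zgc:153039 (0.162) and sftpbb (0.218). For mmp14-II they were nr1d2a (0.318) and MTSS2 (0.397), for mmp25b si:dkey-66i24.9 (0.176) and si:ch211-8c17.2 (0.178), and for adam8a BOLA3 (0.113) and MANF (0.131). The nearest genes to mmp13a, calm1b (0.785) and si:ch73-343l4.8 (0.838), lay farther from it than the neighbours of the other called members. With a mean of 6.38 CPM, mmp13a was itself under the 10 CPM asked of neighbours. The SD of log2 CPM was 1.79 for mmp13a and 2.11 for mmp14-II. For timp2-II, mmp25b and adam8a it was 0.746, 0.635 and 0.603, and these distances were not scaled by it. Among the members themselves the closest pair was mmp25b and adam8a, at 0.500.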

How the data were processed

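The authors dissociated pooled embryos, sorted mpeg-GFP+ cells, amplified cDNA by SMART-seq v4, and mapped the paired reads with STAR to GRCz10. The deposited table holds raw counts per Ensembl gene. The submitters' processing notes also name HTSeq 0.11.0, STAR 2.5.4b and Cufflinks 2.2.1 without roles. The counting rule, strand setting and annotation are not given in the sources used here, so overlapping, antisense and paralogous genes are uncertain. All 12 columns were matched to samples by name, and 0 rows named no gene. Amplified cDNA has no molecular identifiers, so floors of detection cover counting error only.

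Tests were run in edgeR 4.0.16 (glmQLFit and glmQLFTest, R 4.3.3) on the counts as deposited, in 1 fit of all 12 libraries with a mean per group, after filterByExpr and TMM scaling. Benjamini-Hochberg adjustment ran over the 16429 tested genes of each of the 5 contrasts, which share libraries. The thresholds, an adjusted p under 0.01 and an absolute log2 fold change over 1, are those the study states for its expression plots, not its methods text. SE is the log2 fold change divided by the root of F. The procedure was tested on simulated data.

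The members, lists, tests and alternatives were chosen with earlier results of these data known. Members were always named. From each list, up to 3 genes past the thresholds in a genotype and up to 3 in a stage contrast were named by fold, at a mean of at least 5 CPM. For members past a threshold, the 2 most alike genes at 10 CPM or more with a symbol were named. Symbols existed for 27000 IDs (76.9%). Symbols without a match were matched again without their paralogue letter, a step added after the table had been seen, and IDs with 1 symbol got roman numerals. Listed symbols still without a match, such as timp1, timp3 and mpx, were left out. No genome was used, and no coordinates or sequences are given. Alternatives were DESeq2 1.42.0 (size factors and Wald test), upper-quartile scaling, no filter, only the 6 libraries compared, a replicate block, looser thresholds and leaving out each library. Marker lists of endothelial, erythroid, keratinocyte, skeletal muscle, notochord and neural cells were summed too, and are given in the closing section.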

Additional observations from a re-analysis of the deposited data

How the results depend on the processing

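The calls of timp2-II between genotypes and of mmp14-II with age held in every alternative tried. Replicate numbers paired the libraries weakly and unevenly. Of 18 pairs with the same number, 4 had a correlation of deviations over 0.1 (range -0.357 to 0.168). Among these were the pairs between replicate 1 of control at 28 hpf, csf1rDM at 28 hpf and csf1rDM at 50 hpf (0.168, 0.131 and 0.144). Of 12 libraries, 6 correlated best with their own number. With a replicate block mmp13a lost both of its calls with age (edgeR adjusted p = 0.0117 in csf1rDM and 0.0229 in control). So 2 members passed with age in csf1rDM, where 674 genes of all were higher and 558 lower. In control 3 members passed, where 636 genes of all were higher and 319 lower. mmp9 at 50 hpf was -0.10 between genotypes, and 16 genes of all passed in the interaction in place of 26. The block also ended the calls of fn1-II (adjusted p = 0.0144) and fosl1 (0.0128) between genotypes at 50 hpf and of col1a2 with age in control (0.0113), and put furin-I with age in csf1rDM at 0.99, under the fold limit. It ended no other call of a named gene.

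At an adjusted p under 0.05 with no fold limit, 3 members passed between genotypes at 50 hpf, 2 at 28 hpf, 5 with age in csf1rDM, 6 with age in control and 0 in the interaction. All genes past that looser limit numbered 3263 between genotypes at 50 hpf, 3373 at 28 hpf, 4537 with age in csf1rDM, 3839 with age in control and 151 in the interaction. DESeq2's Wald test called 2 members between genotypes at 28 hpf (timp2-II and mmp9). There it called 485 genes of all as higher and 508 as lower, of 16379. In the interaction it called 136 genes of all, and without the filter on low counts the interaction had 57. With only the 6 libraries compared, 889 genes passed with age in csf1rDM and 1644 in control. The timp2-II interaction, near 0, was 0.028 with DESeq2 size factors and with its Wald test and 0.0083 with upper-quartile scaling. The cause of these shifts was not tested.

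Leaving out 1 library in turn gave 615 to 900 genes between genotypes at 50 hpf, 436 to 759 at 28 hpf (the lowest without control replicate 2 at 28 hpf), 1204 to 1401 with age in csf1rDM, 781 to 1117 with age in control and 5 to 29 in the interaction. Member counts were 1 to 1, 1 to 1, 2 to 3, 3 to 5 and 0 to 0 in that order. The log2 fold change between genotypes ranged over -1.14 to 0.58 for mmp9 at 50 hpf and -2.60 to 0.32 for mmp2 at 28 hpf, and the interaction over -1.85 to 1.07 for mmp2 and -0.15 to 0.071 for timp2-II. Members with few counts, mmp2, mmp9, mmp13a and mmp14-I, had the widest standard errors.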

Other observations

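Other cell type markers were uneven between libraries of 1 group, and their part in the results was not tested. The 15 IDs of a skeletal muscle list summed to 18, 10.6 and 4973 CPM in csf1rDM and to 3576, 3114 and 7.10 CPM in control at 50 hpf, and to 96.4, 635 and 2911 CPM in csf1rDM and 10.9, 15.6 and 9.93 CPM in control at 28 hpf. The 8 keratinocyte IDs summed to 66.4, 76.7 and 193 CPM in csf1rDM and 108, 80.2 and 37.2 CPM in control at 50 hpf. At 28 hpf they summed to 534, 168 and 168 CPM in csf1rDM and 418, 103 and 115 CPM in control. Replicate 1 was thus the highest in both genotypes at 28 hpf. The erythroid sums at 28 hpf were also highest in replicate 1, at 25.5 CPM in csf1rDM and 43.1 CPM in control. At 50 hpf they were highest in csf1rDM replicate 2 and control replicate 3. The 12 endothelial IDs stayed between 122 and 163 CPM, the 7 erythroid IDs between 1.73 and 53.7 CPM, the 9 notochord and cartilage IDs between 2.43 and 19.3 CPM and the 10 neural IDs between 36.9 and 133 CPM in all libraries.

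Of the counts of both timp2 IDs, timp2-II held 97.2%, 94.0% and 93.9% in csf1rDM and 89.7%, 91.0% and 95.3% in control at 50 hpf, and 97.8%, 97.7% and 97.7% in csf1rDM and 94.5%, 95.6% and 96.3% in control at 28 hpf. At 28 hpf the csf1rDM shares all lay above the control shares, and at 50 hpf they overlapped.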
